A study of Mus musculus with 12 samples.

Results

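The data concern Cox4i2 and the cytochrome oxidase subunits that are its alternative form or its partners, 10 transcripts of the 35856 listed in the deposited tables. They are Cox4i1, Cox4i2, Cox6a1, Cox6a2, Cox6b1, Cox6b2, Cox7a1, Cox7a2, Cox7a2l and Cox8a, and all 10 were found by symbol in both tables. Cox4i2 was chosen because it was among the transcripts that fell most in Sphk1/2gc−/− cumulus cells. Its cumulus cell values are therefore given as a description, with no test. The other 9 were chosen by name.

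RNA was sequenced from mural granulosa cells (MGCs, which line the follicle wall) and from cumulus cells (which surround the oocyte) of gonadotropin-primed immature female mice, 2 h after hCG. There were 3 libraries for each genotype in each cell type, 12 in all. The genotypes were WT, purchased C57/BL6 mice, and Sphk1/2gc−/−, that is Sphk1−/−; Sphk2 fl/fl; Fshr-Cre. Sphk1 was thus lost in the whole animal and Sphk2 in the granulosa cells, in which the Fshr-Cre transgene is active. Littermate WT controls were not described in the sources used here, so genotype and the source of the animals cannot be told apart. The number of animals behind a library is not given in the sources used here either, so the spread between libraries may be partly technical.

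Cytochrome c oxidase (complex IV) is the last enzyme of the respiratory chain and passes electrons from cytochrome c to oxygen. Its catalytic core is encoded by mitochondrial DNA and is surrounded by small subunits encoded in the nucleus. Several of these exist in 2 forms from separate genes. Subunit IV has a ubiquitous form, Cox4i1, and a second form, Cox4i2, which is known from lung, from vascular smooth muscle cells and pericytes and from responses to low oxygen. Cox6a2 and Cox7a1 are known as the heart and skeletal muscle forms of Cox6a1 and Cox7a2, and Cox6b2 as a testis form of Cox6b1. Cox7a2l is a relative of Cox7a2 that takes part in joining complex IV to complex III, and Cox8a is the common form of subunit VIII.

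Levels are FPKM, fragments scaled by exon length and library total. A comparison between genes rests on the annotated exon lengths used for this scaling. Depth was 16100365 to 19761604 reads per library, as recovered from the whole read steps in the values. Some libraries stood apart. WT cumulus library 3 had 27541 genes above 0 against 18934 and 19289 in the other WT cumulus libraries, and MGC library 3 labelled Sphk1/2gc−/− had the lowest correlations with the other MGC libraries (0.912 to 0.939). The targeted genes did not separate the labels in every case. Sphk1 values in MGCs were 1.68, 1.88 and 0.460 FPKM for the WT label against 0.432, 0.557 and 0.104 FPKM for the Sphk1/2gc−/− label, and Sphk2 had 361, 409 and 363 reads against 318, 330 and 473 reads there. In cumulus cells Sphk1 had 7, 6 and 8 reads in the WT libraries and 7, 43 and 51 reads in those labelled Sphk1/2gc−/−, and Sphk2 had 27 to 45 and 34 to 60 reads. The libraries are therefore called WT-labelled and knockout-labelled below, and every genotype direction rests on these labels. Which part of each gene remained transcribed was not tested.

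The cell type labels were checked against markers. The mural granulosa markers Lhcgr, Nppc, Cyp11a1 and Star were all called higher in WT-labelled MGCs (4 of 4, beside 33.3% of all genes), with summed levels of 1415 to 1723 FPKM against 46.9 to 109.4 FPKM in WT-labelled cumulus cells. Of 6 cumulus markers, Has2, the hyaluronan synthase of cumulus expansion, was called higher in cumulus cells, whereas Tnfaip6, Slc38a3 and Cd44 were called higher in MGCs. The 7 oocyte markers summed to 37.4 to 91.7 FPKM in the WT-labelled MGCs and 3.53 to 7.29 FPKM in the WT-labelled cumulus cells. The part of these markers in the results was not tested.

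Cox4i2 (chromosome 2, 152754173 to 152765037, plus strand, GRCm38, 5 exon blocks) was at 92.6, 52.6 and 60.7 FPKM in the WT-labelled cumulus libraries 1 to 3. It was at 5.12, 4.94 and 5.16 FPKM in the knockout-labelled ones. Behind these values were 1175, 745 and 840 reads against 76, 77 and 78 reads. Every WT-labelled library was high, the knockout-labelled libraries lay close together, and the ranges were far apart. The means were 68.6 ± 21.2 FPKM and 5.08 ± 0.115 FPKM (SD, n = 3 each), a ratio of 13.5, and the log2 fold change on the log2(FPKM + 1) scale was −3.48 (SE 0.213). This was rank 1 among the log2 fold changes of the 12205 genes compared, counted from the lowest. In bulk RNA, fewer cells that contain a transcript and less transcript per cell cannot be told apart.

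MGCs were not used to choose Cox4i2 and give a separate measurement. WT-labelled MGC libraries had 6.31, 8.47 and 7.68 FPKM (82, 112 and 102 reads) and knockout-labelled ones 2.62, 1.87 and 1.47 FPKM (35, 25 and 21 reads). Every knockout-labelled library was below every WT-labelled library. The means were 7.49 ± 1.09 FPKM and 1.99 ± 0.582 FPKM (SD, n = 3 each), so the knockout-labelled mean was 26.6% of the WT-labelled mean. The log2 fold change was −1.51 (SE 0.198), with an unadjusted p of 1.34e-04 and an adjusted p of 0.0744 (limma, Benjamini-Hochberg over 15279 genes), which misses the limit of 0.05. In this comparison 0.0393% of the genes tested were called, that is passed both a limit of 0.05 on the adjusted p and a limit of 1 on the size of the log2 fold change. Without knockout-labelled MGC library 3, which stood apart, the value was −1.39 with an adjusted p of 0.0241, so that the call depends on that library, and without MGC library 3 of both genotypes it was −1.37 with an adjusted p of 0.0175. Over the leave-out fits of single MGC libraries the adjusted p ran from 0.0241 to 0.392.

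The order of the groups for Cox4i2 was WT-labelled cumulus cells, WT-labelled MGCs, knockout-labelled cumulus cells and knockout-labelled MGCs. No neighbouring groups in this order overlapped. The WT-labelled cumulus mean was 9.17 times the WT-labelled MGC mean. Knockout-labelled cumulus cells, at 4.94 to 5.16 FPKM, were below the lowest WT-labelled MGC library at 6.31 FPKM.

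**Figure D1:**
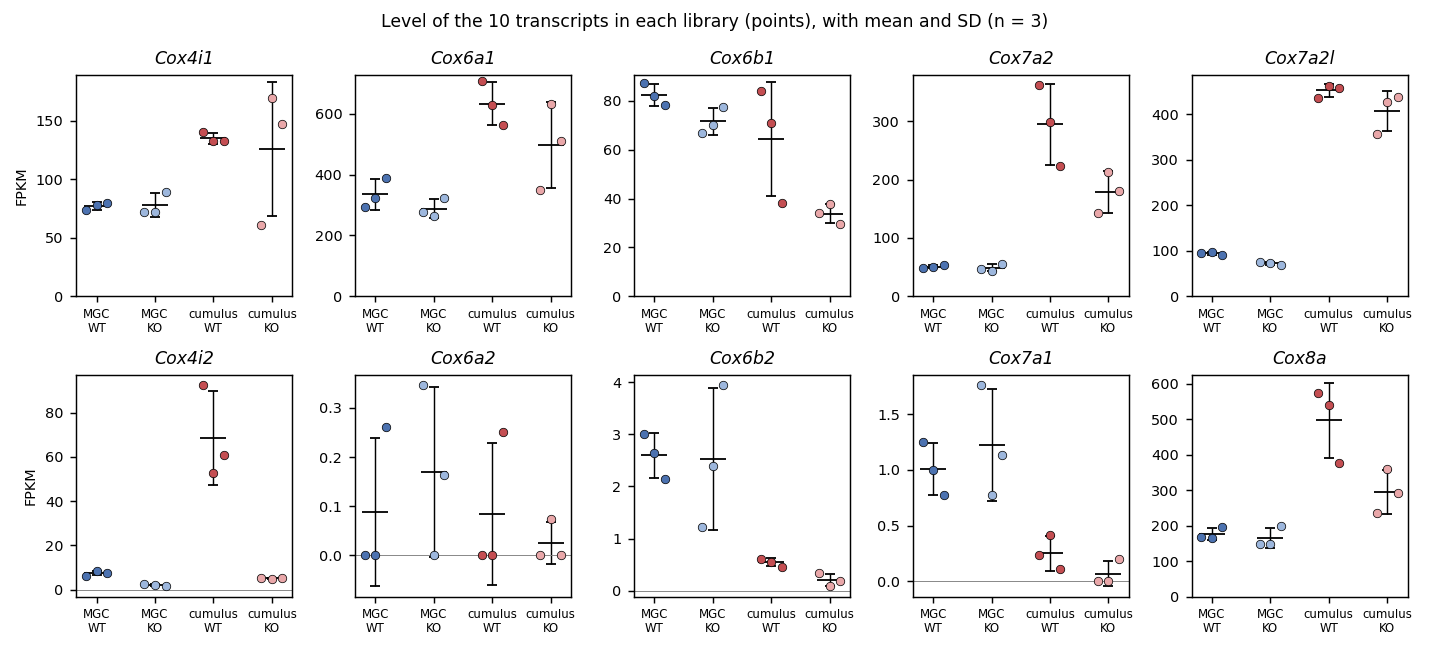
FPKM (vertical axis, a scale for each gene) of the 10 transcripts in the 12 libraries (points), with the mean and SD of each group of 3 (KO is the knockout label, MGC are mural granulosa cells). Cox4i2 is at 52.6 to 92.6 FPKM in WT-labelled cumulus cells and below 9 FPKM in all other groups, while Cox6a2 does not exceed 0.35 FPKM in any library.

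Cox4i1 (chromosome 8, 120668222 to 120674207, plus strand), the ubiquitous form of subunit IV, did not separate the genotypes. In cumulus cells it was at 140.2, 132.5 and 132.6 FPKM in the WT-labelled libraries and at 60.7, 169.7 and 147.6 FPKM in the knockout-labelled ones. The knockout-labelled libraries lay on both sides of the WT-labelled range. The log2 fold change was −0.23 (SE 0.345, limma adjusted p = 0.661), and it turned to 0.23 without knockout-labelled library 1. In MGCs it was at 73.9, 77.9 and 79.9 FPKM and at 71.8, 72.3 and 89.5 FPKM, and the log2 fold change was 0.00 (SE 0.132, adjusted p by limma 0.996). Cox4i1 shares 154 bases with Emc8 on the other strand, and the strand setting of the counting is not given in the sources used here. Emc8 itself did not exceed 6.87 FPKM.

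Because both forms fill the same place in the enzyme, their ratio was computed within each library. Cox4i2 made up 33.2% ± 5.89 of the summed FPKM of both forms in WT-labelled cumulus cells and 4.66% ± 2.71 in knockout-labelled ones (SD, n = 3 each). In MGCs the shares were 8.81% ± 0.973 and 2.56% ± 0.951. The genotypes overlapped in neither cell type, with 28.4% to 39.8% against 2.83% to 7.78% in cumulus cells and 7.86% to 9.81% against 1.62% to 3.52% in MGCs. At the lowest and the highest share, Cox4i1 exceeded Cox4i2 in FPKM by 60.7 times in a knockout-labelled MGC library and by 1.51 times in a WT-labelled cumulus library. The size of the shares rests on the annotated exon lengths, 1550 bases for Cox4i1 and 788 bases for Cox4i2. In reads, Cox4i2 had 1175, 745 and 840 beside 3498, 3692 and 3609 of Cox4i1 in WT-labelled cumulus cells. The order of the libraries by share does not depend on these lengths. The share in cumulus cells repeats the fall by which Cox4i2 was chosen and is a description.

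**Figure D2:**
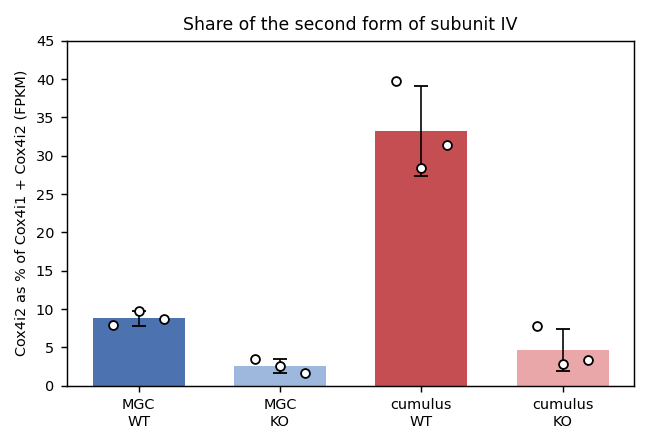
Cox4i2 as a percent of Cox4i1 + Cox4i2 in FPKM (vertical axis) by group (bars, means; error bars, SD; circles, the 3 libraries; KO is the knockout label). The WT-labelled cumulus libraries are at 28.4% to 39.8% and no other library is above 9.81%.

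The other members were next compared between the genotypes in cumulus cells. Of 9 members, 7 passed the filter of a mean of 0.5 FPKM in a genotype, and 0 of the 7 were called by limma, where 8.04% of the 12205 genes tested were called. One of them, Cox6b2, passed only through the WT-labelled group, where it was higher, so it is left out of the counts that follow. All of the other 6 had a negative log2 fold change, with a median of −0.55 beside −0.05 for the 10606 genes that reached the filter in both genotypes. By the unadjusted p, with its limit at 0.05, 3 of the 6 were lower (Cox6b1, Cox7a2 and Cox8a), beside 21.5% of those genes and 21.9% of all genes tested. In the same 3 every knockout-labelled library was below every WT-labelled library, which held for 23.6% of those genes and 24.1% of all genes tested. Leaving out a library cannot make such groups overlap, and without WT-labelled library 3 the share of all genes was 29.6%.

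Cox8a (chromosome 19, 7215153 to 7217616, minus strand) was at 572, 541 and 377 FPKM in WT-labelled and 234, 359 and 291 FPKM in knockout-labelled cumulus cells. The lowest WT-labelled library was only just above the highest knockout-labelled one. Its log2 fold change was −0.75 (SE 0.221, limma adjusted p = 0.0434), so it passed the p limit, beside 12.7% of all genes that passed it downward, but not the fold limit. The adjusted p ran from 0.0268 to 0.146 when single cumulus libraries were left out.

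Cox7a2 (chromosome 9, 79755361 to 79759878, minus strand) was at 362, 299 and 224 FPKM in WT-labelled and 142, 213 and 179.9 FPKM in knockout-labelled cumulus cells. The gap between the groups was again small beside the spread within them. Its log2 fold change was −0.71 (SE 0.223, limma adjusted p = 0.0528).

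Cox6b1 (chromosome 7, 30616861 to 30626151, minus strand), a subunit on the intermembrane side, was at 83.9, 70.9 and 38.3 FPKM in WT-labelled and 34.2, 37.7 and 29.7 FPKM in knockout-labelled cumulus cells. WT-labelled library 3, which stood apart in its number of genes above 0, was close to the knockout-labelled range. The log2 fold change was −0.84 (SE 0.277, limma adjusted p = 0.0621). Without that library it was −1.17 with an adjusted p of 0.0104, which passes both limits.

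Cox6a1 (chromosome 5, 115345642 to 115348981, minus strand) was the most abundant member, at 706, 629 and 564 FPKM in WT-labelled and 348, 631 and 509 FPKM in knockout-labelled cumulus cells. The groups overlapped, and the log2 fold change was −0.39 (SE 0.225, limma adjusted p = 0.243). Cox7a2l (chromosome 17, 83501918 to 83517330, minus strand) was at 435, 463 and 459 FPKM and at 357, 426 and 439 FPKM. Its groups overlapped too, and the log2 fold change was −0.16 (SE 0.144, adjusted p by limma 0.456). Cox7a2l has a processed copy, Gm6969, that matches it at 97.7% over 342 bases and was itself at 2.93 FPKM at most, so that reads could be split between them. Copies with no listed value were found for Cox6a1 (AC148174.2, 92.7% over 496 bases) and Cox6b1 (Gm38305, 90.2% over 164 bases). Cox4i1 matched Gm20394 at 91.0% over 156 bases, itself at 3.17 FPKM at most. Cox4i2, Cox7a2 and Cox8a had no such copy at 90% identity over 150 bases.

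The upstream sequences of the partners that separated the labelled genotypes in cumulus cells at more than 1 FPKM are shown with that of Cox6a1, which did not. They are the 250 bases before the RefSeq start (GRCm38.p6), on the strand of the gene, at chr7:30626115-30626364 for Cox6b1, chr9:79759854-79760103 for Cox7a2, chr19:7217617-7217866 for Cox8a and chr5:115348959-115349208 for Cox6a1.
Cox6b1: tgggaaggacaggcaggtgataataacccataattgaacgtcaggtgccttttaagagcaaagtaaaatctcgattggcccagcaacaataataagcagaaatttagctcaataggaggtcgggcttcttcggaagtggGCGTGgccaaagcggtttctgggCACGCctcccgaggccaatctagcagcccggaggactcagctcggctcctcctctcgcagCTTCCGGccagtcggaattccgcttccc
Cox7a2: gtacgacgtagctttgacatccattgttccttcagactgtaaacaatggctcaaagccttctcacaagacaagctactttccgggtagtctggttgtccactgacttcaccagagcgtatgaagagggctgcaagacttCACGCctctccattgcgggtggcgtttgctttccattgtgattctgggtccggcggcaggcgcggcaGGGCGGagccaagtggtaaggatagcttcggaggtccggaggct
Cox8a: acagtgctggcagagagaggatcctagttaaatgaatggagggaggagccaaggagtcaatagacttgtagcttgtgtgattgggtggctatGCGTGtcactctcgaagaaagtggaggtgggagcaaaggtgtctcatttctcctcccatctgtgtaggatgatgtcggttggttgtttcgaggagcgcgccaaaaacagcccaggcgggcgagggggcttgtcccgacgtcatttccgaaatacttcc
Cox6a1: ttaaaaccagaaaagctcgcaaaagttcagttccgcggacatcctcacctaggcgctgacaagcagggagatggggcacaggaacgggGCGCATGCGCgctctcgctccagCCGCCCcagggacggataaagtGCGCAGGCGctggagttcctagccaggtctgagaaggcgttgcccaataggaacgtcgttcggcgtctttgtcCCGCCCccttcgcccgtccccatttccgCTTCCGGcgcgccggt
Capitals mark matches, on either strand, to the letters GCGCANGCG (NRF-1, a regulator of respiratory genes), CCGGAAG (ETS factors, which include NRF-2), GGGCGG (GC box) and ACGTG or GCGTG (core of the HIF site). Promoters of Cox4i2, Cox4i1 and Cox6a2 are not shown. Of the 7 member promoters searched, 1 held the NRF-1 letters (Cox6a1, at 3 places, 2 of which lie on opposite strands and overlap), beside 5.16% of 32851 promoters. The ETS letters were in 2 (Cox6a1 and Cox6b1) beside 6.91%, and the GC box in 4 beside 32.7%. The letters GCGTG were in 4 (Cox6b1, Cox7a1, Cox7a2 and Cox8a) beside 28.2%, and ACGTG in 0 beside 16.6%. No other matches overlapped each other. A match is a description of the letters and not of binding.

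The same partners were compared in MGCs, where 9 of the 10 members passed the filter and 0 of 9 were called. Beside Cox4i2, only Cox7a2l had an unadjusted p of 0.05 or less among them, and 5.90% of all genes were lower at that limit. Cox7a2l was at 94.8, 98.3 and 91.6 FPKM in WT-labelled and 76.3, 72.5 and 68.7 FPKM in knockout-labelled MGCs, without overlap. Its log2 fold change was −0.39 (SE 0.110, unadjusted p = 0.0104, limma adjusted p = 0.349). Cox8a (169, 164 and 197 against 149, 147 and 198 FPKM), Cox7a2 (49.3, 50.2 and 53.0 against 47.1, 44.0 and 55.4 FPKM) and Cox6a1 (292, 323 and 390 against 277, 263 and 323 FPKM) overlapped between the genotypes. Cox6b1 was at 87.4, 81.8 and 78.3 FPKM and at 67.0, 70.3 and 77.6 FPKM, so that the log2 fold change was −0.20 (SE 0.118, adjusted p by limma 0.659).

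Without overlap between the genotypes were Cox4i2, Cox6b1 and Cox7a2l, 3 of 9, beside 9.17% of all genes with every knockout-labelled library lower. Without knockout-labelled library 3, a step that can only raise such counts, it was 7 of 9 and the share of all genes was 27.7%. The median log2 fold change of the 9 was −0.11, beside −0.00 for all genes tested.

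Whether the genotype difference of the partners differed between the cell types was tested in 1 fit of all 12 libraries. Of 8 members tested, 0 were called, and 3.31% of 15869 genes were called. The difference of the log2 fold changes, cumulus cells minus MGCs, was −0.65 for Cox7a2 (SE 0.273, limma adjusted p = 0.191), −0.64 for Cox8a (SE 0.294, limma adjusted p = 0.226) and −0.64 for Cox6b1 (SE 0.329, limma adjusted p = 0.282). Unadjusted p values of 0.05 or less were found for Cox7a2 (0.0352) and Cox8a (0.0499), beside 10.8% of all genes that were lower at that limit. The other 5 had adjusted p values of 0.430 to 0.794. For Cox4i2 the difference was −1.96 (SE 0.295), as a description.

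**Figure D3:**
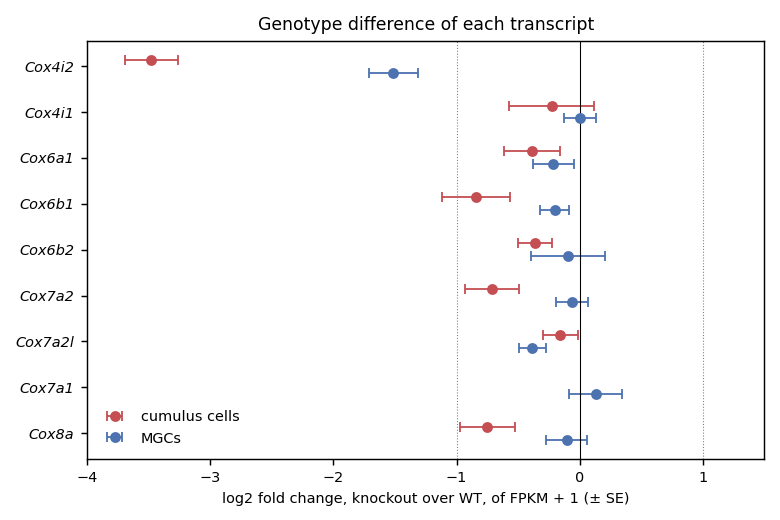
Log2 fold change of FPKM + 1, knockout label over WT label (horizontal axis), of the 9 members that passed the filter in at least 1 cell type, with SE (bars), in cumulus cells (red) and MGCs (blue); dotted lines mark a log2 fold change of 1 in size. Cox4i2 is at −3.48 and −1.51, and all other members lie between −0.84 and 0.13.

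The tissue forms were at low levels. Cox6a2 (chromosome 7, 128205435 to 128206387, minus strand) was at 0 in 7 of the 12 libraries and at most 0.347 FPKM in the others, so it passed no filter. Cox7a1 (chromosome 7, 30184144 to 30186078, plus strand) was at 1.25, 1.00 and 0.776 FPKM in WT-labelled and 1.76, 0.773 and 1.14 FPKM in knockout-labelled MGCs. Its log2 fold change there was 0.13 (SE 0.213, limma adjusted p = 0.897). In cumulus cells Cox7a1 was at 0.106 to 0.416 FPKM in the WT-labelled and 0 to 0.195 FPKM in the knockout-labelled libraries and was not tested.

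Cox6b2 (chromosome 7, 4751792 to 4753094, minus strand) was at 0.617, 0.552 and 0.462 FPKM in WT-labelled and 0.335, 0.0913 and 0.188 FPKM in knockout-labelled cumulus cells. All 3 knockout-labelled libraries were below the WT-labelled ones. As it passed the filter only through the WT-labelled group, its log2 fold change of −0.36 (SE 0.138) is a description. In MGCs it was at 3.01, 2.64 and 2.14 FPKM and at 1.22, 2.40 and 3.94 FPKM, where the knockout-labelled libraries spread over both sides of the WT-labelled range.

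As a share of its pair in the WT-labelled libraries, Cox6b2 was 3.04% ± 0.343 in MGCs and 0.899% ± 0.256 in cumulus cells (SD, n = 3 each). Cox7a1 was 1.96% ± 0.512 and 0.0836% ± 0.0488 of its pair with Cox7a2. Among the pairs, the second form of subunit IV had the highest share of FPKM in WT-labelled cumulus cells and in WT-labelled MGCs. Its level in cumulus cells was part of the choice of Cox4i2, so its place there is a description.

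Levels were compared between the cell types in the WT-labelled libraries, where 48.7% of the 15869 genes tested were called (15.4% lower and 33.3% higher in MGCs) and the median of all genes was 0.54 (log2, MGCs minus cumulus cells). Of 8 members tested 4 were called, and Cox7a1 passed the filter only through MGCs. Cox7a2 was lower in MGCs at −2.49 (SE 0.193, limma adjusted p = 2.40e-07), Cox7a2l at −2.24 (SE 0.124, limma adjusted p = 1.62e-08) and Cox8a at −1.47 (SE 0.208, limma adjusted p = 4.30e-05), whereas Cox6b2 was higher in MGCs at 1.21 (SE 0.236, limma adjusted p = 5.28e-04). The mean of Cox7a2 in cumulus cells was 5.80 times, that of Cox7a2l 4.77 times and that of Cox8a 2.81 times the mean in MGCs. Cox6a1 (−0.92) and Cox4i1 (−0.80) were lower in MGCs at an adjusted p under 0.05 but within the fold limit, where 24.1% of all genes were lower and 52.5% higher by that p alone. The log2 difference of Cox7a1 was 0.68, as a description. Cox6b1 was at 0.42 (SE 0.232, limma adjusted p = 0.113), and its direction turned to −0.31 when each library was rescaled by its median ratio, a step that moved the median of the 15289 genes in both fits from 0.56 to 0.12. After it Cox6b2 was within the fold limit (0.81), and Cox4i1 (−1.53) and Cox6a1 (−1.66) were past it. Cell type and deposited table cannot be told apart in this comparison. Between the genotypes the same rescaling moved the median of all genes by less than 0.1 in either cell type.

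Other nuclear subunits of complex IV were counted for context. Of 9 listed, 6 were tested (Cox5a, Cox5b, Cox6c, Cox7b, Cox7c and Ndufa4), and 0 were called between the genotypes in either cell type. In cumulus cells 5 of the 6 had a negative log2 fold change and the median was −0.60, the most negative being Cox7c at −0.73 (limma adjusted p = 0.0993). In MGCs the median was 0.00. The 3 mitochondrial subunits were not called either, and mt-Co1, the catalytic subunit, was at 12806 to 16889 FPKM in WT-labelled and 14831 to 16191 FPKM in knockout-labelled cumulus cells.

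Of 26 assembly factors of complex IV, 21 were tested in cumulus cells and 0 were called. With the limit on the adjusted p alone 5 were lower and 0 higher, beside 12.7% and 9.66% of all genes. These were Cmc2 (−0.97, adjusted p = 0.0153), Coa3 (−0.77, adjusted p = 0.0117), Coa7 (−0.71, adjusted p = 0.0121), Taco1 (−0.65, adjusted p = 0.0489) and Cox18 (−0.58, adjusted p = 0.0421) by limma, within the fold limit. The median of the 21 was −0.23. Coa3 and Cox18 act on the mitochondrially encoded core subunits, and Taco1 is an activator of mt-Co1 translation. In MGCs 0 of 23 were called, with a median of 0.09.

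Cytochrome c itself, Cycs, and its haem lyase Hccs were not called between the genotypes in either cell type (0 of 2). Known regulators of Cox4i2 transcription or of its protein exchange with Cox4i1 (Rbpj, Chchd2, Cxxc5, Hif1a, Epas1, Arnt and Lonp1) were not called either, 0 of 7 in each cell type. Hif1a, a subunit of the oxygen-regulated HIF factors, was at 287, 181 and 259.6 FPKM in WT-labelled and 367, 261 and 474 FPKM in knockout-labelled cumulus cells, so that the log2 fold change was 0.58 (adjusted p by limma 0.133). Rbpj was at 0.951 to 1.18 FPKM and 0.833 to 1.19 FPKM.

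HIF targets were listed because Cox4i2 is known to respond to low oxygen. Of 14 listed, 10 were tested in cumulus cells, and 2 rose and 3 fell by the call rule. Of all genes, 4.19% were called higher and 3.85% lower. Among the targets that fell, Ndufa4l2 passed the filter only through the WT-labelled group, so its fall is a description. Slc2a1, the glucose carrier GLUT1, rose (1.49, limma adjusted p = 0.00552), and so did Vegfa, an angiogenic factor (1.02, limma adjusted p = 0.0478). The call of Vegfa was lost without any single library except knockout-labelled library 1, with adjusted p values of 0.0821 to 0.151. Bnip3, a mitophagy receptor, fell (−1.86, limma adjusted p = 0.00177), and so did Pdk1, an inhibitor of pyruvate dehydrogenase (−1.06, limma adjusted p = 0.00412). Without WT-labelled library 2, Pdk1 was just within the fold limit. In MGCs 0 of 12 were called. The targets that moved thus moved in both directions.

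The last of the 3 that fell, Ndufa4l2, is the relative of Ndufa4, a subunit of complex IV, and passed the filter only through the WT-labelled group in both cell types. It was at 2.89, 1.47 and 2.44 FPKM (51, 29 and 47 reads) in WT-labelled cumulus cells and at 0 reads in each of the 3 knockout-labelled libraries. Taking 3 reads over the group as the floor, its mean was at least 47.9-fold lower in the knockout-labelled libraries. The fitted log2 fold change was −1.68 (SE 0.184), which is no bound and, given how the gene passed the filter, is a description. In MGCs Ndufa4l2 was at 35, 27 and 23 reads against 6, 6 and 6 reads. Its log2 fold change there was −0.95 (SE 0.164), also as a description. Ndufa4 itself was at 45.1, 50.2 and 43.1 FPKM in WT-labelled and 25.2, 58.0 and 46.2 FPKM in knockout-labelled cumulus cells and was not called.

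**Figure D4:**
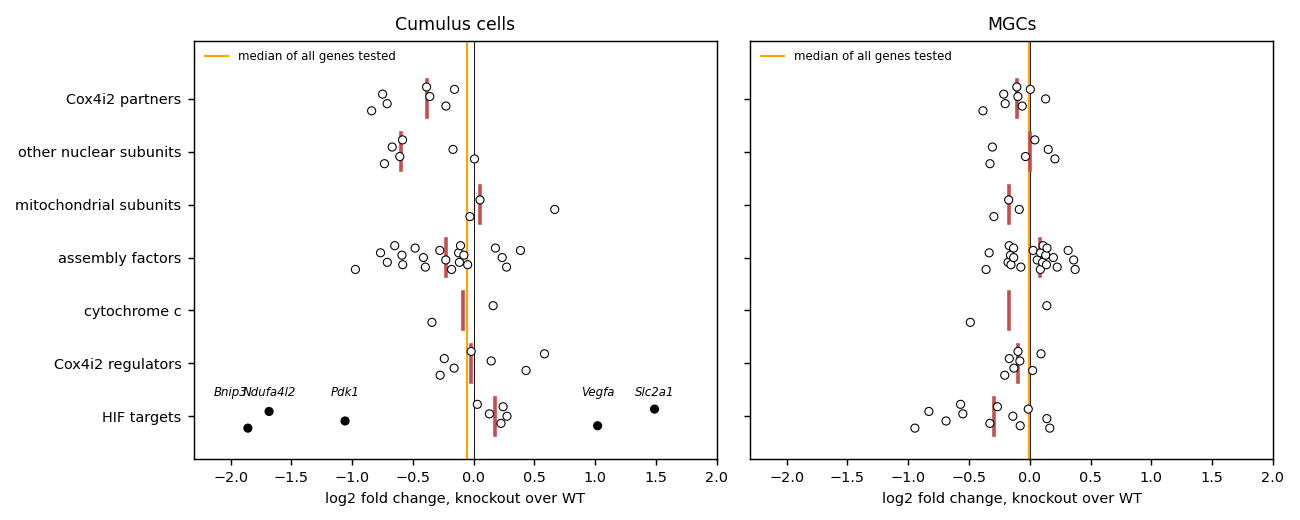
Log2 fold change, knockout label over WT label (horizontal axis), of the tested genes of each list (circles, filled and named where called; red bars, list medians; orange line, median of all genes tested) in cumulus cells (left) and MGCs (right), without Cox4i2. Among the lists drawn, which leave out the cell type markers, the called genes are HIF targets in cumulus cells, 3 lower and 2 higher. Of the lower ones, Ndufa4l2 passed the filter only through the WT-labelled group and is a description.

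Cox4i2 is known from pericytes and smooth muscle, so markers of other cells were examined beside it. Of 12 pericyte and smooth muscle markers, 11 were under 1 FPKM in all 3 WT-labelled cumulus libraries, in which Cox4i2 was at 52.6 to 92.6 FPKM. The pericyte markers Rgs5 (0.0612 to 0.342 FPKM) and Higd1b (0 to 0.0733 FPKM) were near 0, and only Acta2 was higher (5.65 to 23.5 FPKM). The 12 summed to 6.18 to 24.8 FPKM in WT-labelled and 6.89 to 23.0 FPKM in knockout-labelled cumulus cells, with overlap. Acta2 made up most of these sums. Of the others, Mcam had means of 0.267 and 0.908 FPKM in WT-labelled and knockout-labelled cumulus cells. It passed the filter only through the knockout-labelled group, so its log2 fold change of 0.59 is a description. Untested below the filter were Pdgfrb with means of 0.0776 and 0.471 FPKM, Rgs5 with 0.247 and 0.0334 FPKM and Myh11 with 0.167 and 0.0395 FPKM. The part of these markers in the difference of Cox4i2 in cumulus cells was not tested.

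In MGCs the sums of the same markers did not overlap between the labels. They were 69.0 to 82.1 FPKM in WT-labelled and 42.7 to 52.8 FPKM in knockout-labelled MGCs. Of the 11 markers tested, 10 had a negative log2 fold change, beside 7715 of the 15279 genes tested, and 0 were called. For 9.17% of all genes every knockout-labelled library was below every WT-labelled one. Acta2, at 49.3 to 54.7 FPKM and 27.5 to 37.8 FPKM, made up most of the sums, and Kcnj8, Notch3, Cspg4, Des, Myh11 and Tagln overlapped between the labels. The 7 endothelial markers summed to 12.8 to 16.6 FPKM and 7.99 to 9.80 FPKM. Their part in the difference of Cox4i2 in MGCs was not tested. In cumulus cells the endothelial markers summed to 0.974 FPKM at most. Theca markers summed to 120.0 to 254 FPKM and 95.7 to 156.7 FPKM in MGCs, and macrophage markers to 15.5 to 38.8 FPKM and 15.3 to 79.3 FPKM, both with overlap.

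In cumulus cells the theca markers summed to 13.9 to 42.6 FPKM in WT-labelled and 7.28 to 13.3 FPKM in knockout-labelled libraries, and Cyp17a1, the androgen-forming enzyme of theca cells, was called lower (−1.24, limma adjusted p = 0.0372). Macrophage markers summed to 1.24 to 3.81 FPKM and 3.92 to 18.3 FPKM, and the complement gene C1qb (1.96, limma adjusted p = 0.0309) was called higher. C1qa, also a complement gene, passed the filter only through the knockout-labelled group, so its log2 fold change of 1.33 is a description. Oocyte markers summed to 3.53 to 7.29 FPKM and 2.15 to 2.52 FPKM. None of these 3 sums overlapped between the labels, but the theca ranges (13.9 and 13.3 FPKM) and the macrophage ranges (3.81 and 3.92 FPKM) nearly met. The part of these sums in the difference of Cox4i2 in cumulus cells was not tested. For 24.1% of all genes tested every knockout-labelled library was below every WT-labelled one. The share in the other direction, that of the macrophage sum, is not given here. Of all genes, 3.85% were called lower and 4.19% higher.

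Markers of the granulosa lineage moved with the label in cumulus cells. Of 8 granulosa markers 4 were called lower (Inhba, Cyp19a1, Nr5a2 and Hsd17b1), and of 4 mural granulosa markers 2 (Lhcgr and Cyp11a1). Of 6 cumulus markers 3 (Tnfaip6, Ptx3 and Cd44) met the call rule upward. As Cd44 passed the filter only through the knockout-labelled group, its rise is a description. Of all genes, 3.85% were called lower and 4.19% higher. The granulosa markers summed to 3783 to 4891 FPKM in WT-labelled and 2548 to 2904 FPKM in knockout-labelled cumulus cells, and the part of this difference in that of Cox4i2 was not tested. Among 10 striated muscle markers, Tnni3 (cardiac troponin I) was at 556, 463 and 434 FPKM in WT-labelled and 59.4, 48.1 and 57.9 FPKM in knockout-labelled cumulus cells. Actc1, cardiac actin, was at 0.0768, 0.275 and 0.317 FPKM and at 1.61, 5.66 and 5.28 FPKM. It passed the filter only through the knockout-labelled group, so its log2 fold change of 1.97 is a description. In the WT-labelled cumulus libraries 9 of these 10 markers were under 1 FPKM.

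The transcripts most like Cox4i2 were named by Pearson's r of log2(FPKM + 1) over the 12 libraries, as a description, among the 8471 genes whose mean reached 5 FPKM in some group. They were Rhox5 (0.965), Gstm2 (0.964), Gstk1 (0.953), Snrnp25 (0.951), Efna5 (0.949), Sftpc (0.942), 3110045C21Rik (0.941), Mettl23 (0.941), Tnni3 (0.932) and 2310020H05Rik (0.931). The 12 libraries fall into 4 groups, so they are not independent points. Rhox5, a homeobox gene of the reproductive tract, was at 14.4, 8.26 and 9.59 FPKM in WT-labelled cumulus cells and 1.45 to 2.32 FPKM in knockout-labelled ones. In MGCs it was at 0.944 to 1.42 FPKM and 0.313 to 0.587 FPKM. Gstm2 and Gstk1, glutathione transferases, had ranges of 139.3 to 179.0 FPKM and 11.5 to 12.4 FPKM in WT-labelled and 61.3 to 64.6 FPKM and 5.06 to 5.57 FPKM in knockout-labelled cumulus cells. No member of complex IV other than Cox4i2 was among the 10. As the 10 are a very small part of the 8471 genes compared, this absence is no result about the complex.

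**Figure D5:**
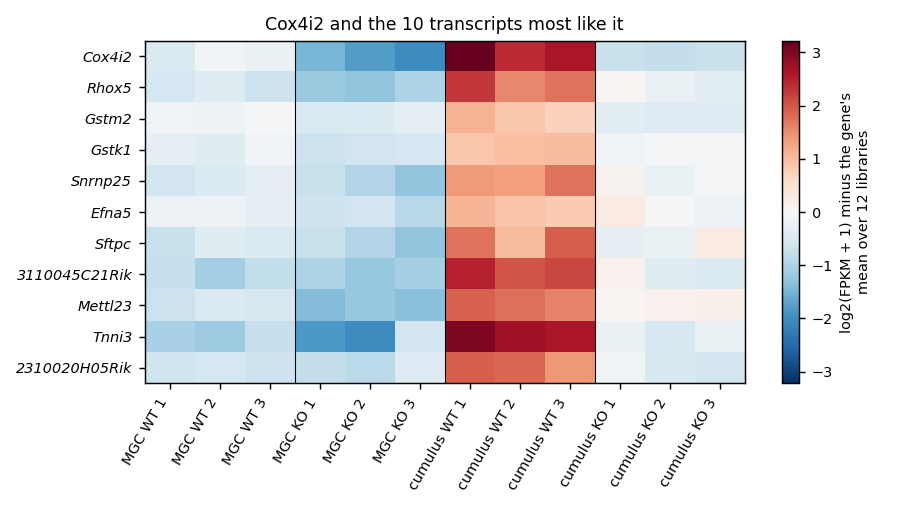
Level of Cox4i2 and the 10 transcripts most like it (rows) in the 12 libraries (columns; KO is the knockout label), as log2(FPKM + 1) minus the mean of the gene over the 12 libraries (colour). The 3 WT-labelled cumulus columns are above the mean in all 11 rows, and all MGC columns labelled KO are below it.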

How the data were processed

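Values were the FPKM tables that the authors deposited, 1 for MGCs and 1 for cumulus cells, with 0 columns left unused. The submitters' processing notes name HISAT2 and GRCm38, and the counting tool is not given in the sources used here. FPKM is scaled to exon length and to the total of each library. The product of FPKM and GENCODE M21 exon length fell on whole reads for 90.6% to 92.1% of values (tolerance 0.02 reads), which gave the read totals and put both tables on 1 scale per library. Read counts were not used in a test. No exon length matched for Cox7a2l and Cox8a, which have no read counts here.

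Log2(FPKM + 1) was fitted with limma 3.58.1 (trend, R 4.3.3) for each cell type, and for all 12 libraries jointly, over genes whose mean reached 0.5 FPKM in some group. Calls needed a p, adjusted by Benjamini-Hochberg, of at most 0.05 and a fold of at least 2. The scale understates changes at low levels. The code was tested on simulated data. Members, lists, tests and named genes (the members, the genes called in a list and the 10 most like Cox4i2) were chosen with earlier results of these data known. Genes named from markers, Rgs5, Higd1b, Acta2, Hif1a, Rbpj, Ndufa4 and mt-Co1 were singled out after their values were seen. Cox8b, Sco2, Pet117 and Ero1a were not analysed here.

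Libraries are numbered by their labels, which state no shared animal. Deviations from the genotype means correlated by number at 0.220, 0.158 and 0.224 (MGCs) and at −0.148, −0.0511 and 0.115 (cumulus cells). As each of the MGC values exceeds 0.1, the number was treated as a possible pairing in MGCs and tried as a block in an alternative fit. The main fits had no block, so their p values take no account of a pairing. WT-labelled MGC library 1 and knockout-labelled MGC library 2, of unlike number, correlated at 0.155. Alternatives were another pseudocount, other filters, a rescaling, no fold limit, no trend, the block and leaving out libraries.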

Additional observations from a re-analysis of the deposited data

Results flagged for a closer look

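Among the listed genes tested, leaving aside the cell type markers, only Slc2a1 was called for a genotype difference that differed between the cell types. Of the markers, 3 granulosa markers and 1 striated muscle marker were called lower in this fit of all 12 libraries. Called higher were 2 pericyte and smooth muscle markers, 1 striated muscle, 1 endothelial and 1 cumulus marker. Of all genes, 3.31% were called in either direction. The log2 fold change of Slc2a1 was 1.49 in cumulus cells and −0.08 in MGCs, a difference of 1.57 (limma adjusted p = 0.0394). Slc2a1 was at 11.4, 10.9 and 16.7 FPKM in WT-labelled and 37.6, 28.2 and 50.2 FPKM in knockout-labelled cumulus cells, and at 32.4 to 37.0 FPKM and 22.2 to 42.9 FPKM in MGCs.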

How the results depend on the processing

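Of 583 refits of the members' log2 fold changes under the alternatives, 556 were counted as the same. Where a member was tested, this meant the same direction and side of the limits. For Cox4i2 where it was not tested, it meant the same direction and a shift below the larger SD of its log2 values within a cumulus group. The causes of the changes below were not tested. In cumulus cells 981 genes were called, 1674 with a pseudocount of 0.1, 2725 without a fold limit and 757 to 1305 with single libraries left out. The count of members called was 0, 1 (Cox8a) without a fold limit and 0 to 1 (Cox6b1, without WT-labelled library 3) with a library left out. Cox4i2 ran from −3.65 to −3.24 there. Cox4i1 ran from −0.51 to 0.23. Leaving out genes below the filter in either genotype, chosen after seeing the data, took the members lower at the unadjusted limit from 4 to 3 and their median from −0.39 to −0.55.

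In MGCs 6 genes were called, 1 with a filter at 5 FPKM, 1 without a filter, 1 after rescaling, 477 without library 3 of both genotypes (1 member, Cox4i2 at −1.37), and 0 to 170 with single libraries left out (0 to 1 members). Cox4i2 ran from −1.66 to −1.39 there, and its adjusted p from 0.0818 to 0.181 under the other settings that keep all libraries. Directions that turned, all within the limits, were those of Cox4i1 (−0.0987 to 0.0586, and −0.0741 without both libraries 3), Cox6b2 (−0.38 to 0.20), Cox7a1 (−0.0385 to 0.28) and Cox7a2 (−0.15 to 0.00760). With the pairing by number as a block 3 genes were called in MGCs, the adjusted p of Cox4i2 was 0.153, and no member was called in either cell type. The difference between cell types had 817 calls with the block. Between the cell types, with the number as a block across all 12 libraries, 7732 genes and 4 members were called.

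Between the cell types 7733 genes were called and 12156 without a fold limit, with 4 and 7 members (Cox7a1, at the filter only in MGCs, among the 7). Single libraries left out gave 7569 to 7949 genes and 4 to 5 members. Rescaled, Cox4i2 moved from −3.00 to −3.68 and Cox6b1 turned to −0.31. For the difference of genotype effects 526 genes were called, 251 without a filter, 1081 without MGC library 3 of both genotypes and 106 to 927 with single libraries left out. There Cox6b2 turned to 0.11 without both libraries 3, and with single libraries left out it ran from −0.56 to 0.0187, Cox4i1 from −0.51 to 0.22 and Cox6a1 from −0.37 to 0.0606. Flooring values at 0.1 FPKM left the subunit IV shares as they were. With 3 libraries a group, only differences that are large beside the spread could pass the limits.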
